A study of Mus musculus with 2 samples.

Results

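Adipokines are hormones and signal proteins that fat cells release into the blood, and 9 genes for adipokines and adiponectin receptors were followed in cultured bone marrow stromal cells labelled PPARg-deficient or PPARg-floxed. The genes were taken from a given list, which was drawn up with earlier results of these data known. They are Adipoq, Adipor1, Adipor2 and Cdh13 of the adiponectin system, and Rarres2, Nampt, Cfd, Lep and Retn, which encode other adipokines. All 9 were found among the 19283 named genes of the deposited transcript models, which held 25707 loci. The deposited files carry no gene symbols, so each gene was recognised by the lengths of its introns and internal exons.

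RNA was sequenced in 2 libraries, 1 from PPARg-deficient cells, which the labels call PPAR knockout, and 1 from PPARg-floxed cells, in which the gene carries recombination sites but was not labelled as deleted. Both held total RNA of bone marrow mesenchymal stem/progenitor cells cultured in serum-containing DMEM, taken from CD-1 mice aged 3 months. The sources used here name neither the deleted exons, the driver of any recombinase nor the number of animals behind a library. With 1 library per group there was no replicate check and hence no test or p-value, and any difference between the libraries other than PPARg cannot be told apart from its loss.

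Adiponectin is made almost entirely by fat cells and travels in multimers held together by a collagen-like stretch. Its receptors AdipoR1 and AdipoR2 lie in the cell membrane and signal through the adaptor APPL1 to AMP-activated protein kinase and PPARa, while T-cadherin binds the large multimers at the cell surface. PPARg, the nuclear receptor that directs fat cell formation, is a known activator of adiponectin transcription, and marrow stromal cells can turn into fat cells or bone-forming cells.

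Values are FPKM, fragments per kilobase of transcript scaled to the library's mapped fragments, summed over a gene's transcripts. The deposited bounds also gave the number of sequenced fragments behind a value, because at loci with 1 transcript the upper bound lay 2 Poisson standard deviations above the estimate. Of such loci under 20 fragments, 84.9% came out within 0.02 of a whole number in the deficient library, against 84.7% in the floxed library. The fitted totals were 9350000 mapped fragments in the deficient library, against 9050000 in the floxed library. Pparg itself, the targeted gene, stood at 1.39 FPKM from 21 fragments in the deficient library and at 6.86 FPKM from 99 fragments in the floxed library. Of 11 stromal markers 8 reached 1 FPKM in each library, while Eng and Thy1 stayed under 0.5 FPKM in both. By the larger of their 2 values, Cxcl12, Pdgfrb and Vcam1 were highest. In the floxed library Pdgfrb, at 21.8 FPKM, lay below Itgb1 at 28.2 and Cd44 at 26.5 FPKM.

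Log2 folds were taken as deficient over floxed on log2(FPKM + 1), which understates the change of low genes. The median over 10755 kept loci was 0.86, or 1.81-fold higher in the deficient library, so folds are given relative to that median gene and, where it matters, as deposited. Kept loci had at least 1 FPKM in 1 library and a transcript of 300 nt or more, and a locus was called at 2-fold by size alone. Relative to the median gene, 3 of the 9 genes were called lower and 0 higher, where 11.8% of all kept loci were called lower and 10.3% higher (22.1% in either direction). As deposited, 2 were lower and 2 higher, against 4.71% and 42.0% of kept loci (46.7% in either direction). Of the 9 genes 6 were kept and 3, Cfd, Lep and Retn, were not. Adipoq and Rarres2 passed only through the floxed library and Adipor2 only through the deficient library, so these counts support nothing by themselves.

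**Figure D1:**
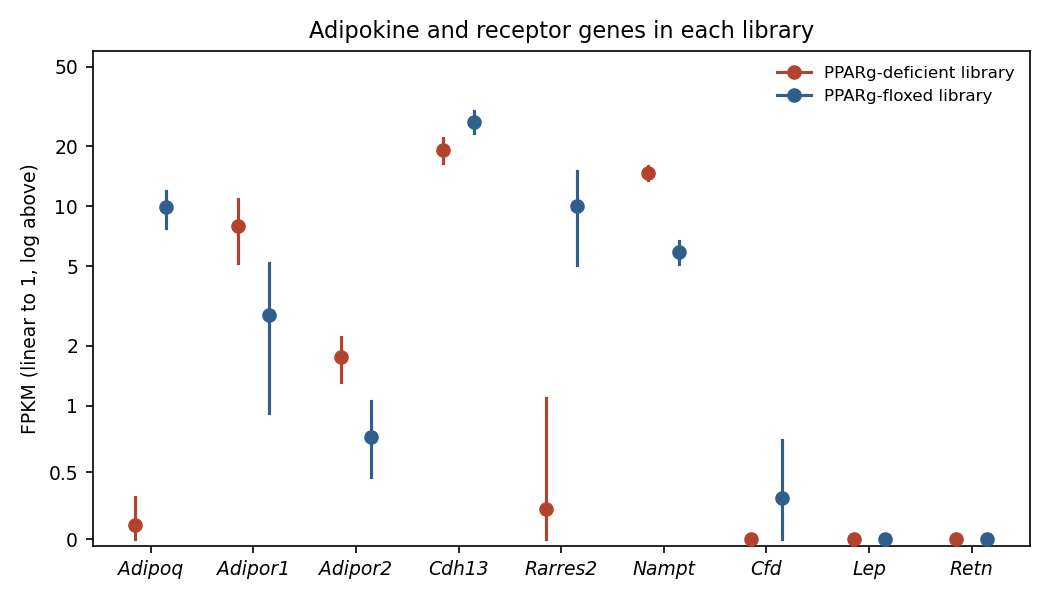
FPKM of the 9 genes in the PPARg-deficient library (left point of each pair) and the PPARg-floxed library (right point), on an axis that is linear up to 1 FPKM and logarithmic above; lines span the deposited bounds summed over transcripts, which describe the estimate within 1 library. Adipoq and Rarres2 were near 10 FPKM in the floxed library and under 0.5 FPKM in the deficient library, and Lep and Retn were listed at 0 in both.

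The adiponectin gene was almost silent in the deficient library. Adipoq (XLOC_008362), a single model of 3 exons and 1232 nt on chromosome 16 from 23146609 to 23158041 (mm9, plus strand), had 0.104 FPKM in the deficient library, with deposited bounds of 0 to 0.312, and 9.87 FPKM in the floxed library, with bounds of 7.81 to 11.9. The deficient value rested on 1 fragment (exact Poisson 95% interval 0.0253 to 5.57) and the floxed value on 92 fragments (74.2 to 113). Such intervals cover counting error alone, and fragments read after PCR without molecular identifiers are not independent molecules. The ratio of deficient to floxed FPKM was 0.0105, with an exact 95% interval of 0.000264 to 0.0602. The log2 fold was -4.16 relative to the median gene and -3.30 as deposited, and 0.567% of kept loci had a lower one. The floxed level exceeded that of 72.2% of kept loci and the deficient level that of 1.32%. In such bulk samples, fewer cells of a type and less RNA per cell cannot be told apart.

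Because transcription factors act partly through promoters, the bases before the Adipoq start are shown beside those of Nampt, the adipokine gene with the most fragments in the deficient library. Both are RefSeq windows of 250 bases on GRCm38.p6, written 5′ to 3′ on the gene's own strand, plus for both, and 7 of the 9 genes had such a window. Capitals mark CCAAT boxes (CCAAT or its reverse complement) in Adipoq and GC boxes (GGGCGG or its reverse complement) in Nampt.
Adipoq, chr16:23146286-23146535: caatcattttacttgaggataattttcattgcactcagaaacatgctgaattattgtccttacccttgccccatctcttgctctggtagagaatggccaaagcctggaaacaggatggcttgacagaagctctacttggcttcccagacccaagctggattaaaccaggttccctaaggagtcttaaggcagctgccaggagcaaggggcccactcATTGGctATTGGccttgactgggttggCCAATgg
Nampt, chr12:32820085-32820334: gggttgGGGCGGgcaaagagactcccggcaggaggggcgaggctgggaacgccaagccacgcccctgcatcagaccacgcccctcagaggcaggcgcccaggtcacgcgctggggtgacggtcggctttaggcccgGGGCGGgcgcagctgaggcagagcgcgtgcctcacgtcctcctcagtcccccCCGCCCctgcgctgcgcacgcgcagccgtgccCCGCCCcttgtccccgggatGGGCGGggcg

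The Adipoq window held 3 CCAAT boxes, all within the last 34 bases before the start and none overlapping another, and 0 CpG dinucleotides. Of 32851 windows of the same length, 33.8% held a CCAAT box, 2.79% held at least 3, and 7.87% had 0 CpG. The Nampt window held 5 GC boxes and 27 CpG, where 32.7% of windows held a GC box, 1.93% held at least 5 and 8.56% had at least 27 CpG. The element that PPARg binds with its partner RXR is a direct repeat of a half-site with 1 base between, AGGTCANAGGTCA. On either strand it was in 0.0335% of windows exactly and in 3.24% with up to 2 mismatches, and none of the windows of the 7 genes held it in either form. The C/EBP core TTGCNNAA, which 9.56% of windows held, was present once in the Lep window, from 55 to 48 bases before the start, and in no window of the other 6 genes that had one. A match is only a run of letters, and its absence says nothing of binding outside 250 bases.

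Both adiponectin receptor genes were expressed, Adipor1 above Adipor2 in each library. Adipor1 (XLOC_000403), on chromosome 1 from 136312044 to 136329847 (mm9, plus strand), had 7.98 FPKM in the deficient library from 183 fragments (157 to 212) and 2.86 FPKM in the floxed library from 68 fragments (52.8 to 86.2). Its ratio of deficient to floxed FPKM was 2.79 (exact 95% interval 2.10 to 3.75). The deposited bounds summed over its transcripts, 5.19 to 10.8 FPKM in the deficient library and 0.95 to 5.22 FPKM in the floxed library, overlapped slightly. On log2(FPKM + 1) the fold was 1.22 as deposited, a 2-fold call, and 0.36 relative to the median gene, with 69.3% of kept loci below it.

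Adipor2 (XLOC_019232), a single model of 8 exons on chromosome 6 from 119303168 to 119367501 (mm9, minus strand), had 1.76 FPKM in the deficient library from 62 fragments (47.5 to 79.5) and 0.763 FPKM in the floxed library from 26 fragments (17.0 to 38.1). The ratio was 2.31 (1.44 to 3.80). The log2 fold was 0.65 as deposited and -0.21 relative to the median gene. Its direction thus turned with the scaling, and it was called in neither. The relative fold was -0.03 with a pseudocount of 0.1 FPKM and 0.07 with upper-quartile scaling. Adipor1 exceeded Adipor2 4.53-fold in the deficient library and 3.74-fold in the floxed library in FPKM, a per-length unit. The Adipor1 sum includes a model that matched no annotated transcript, with 2.68 FPKM in the deficient library and 1.48 FPKM in the floxed library. In the floxed library the summed bounds of Adipor1 (0.950 to 5.22 FPKM) and the bounds of Adipor2 (0.464 to 1.06 FPKM) overlapped.

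**Figure D2:**
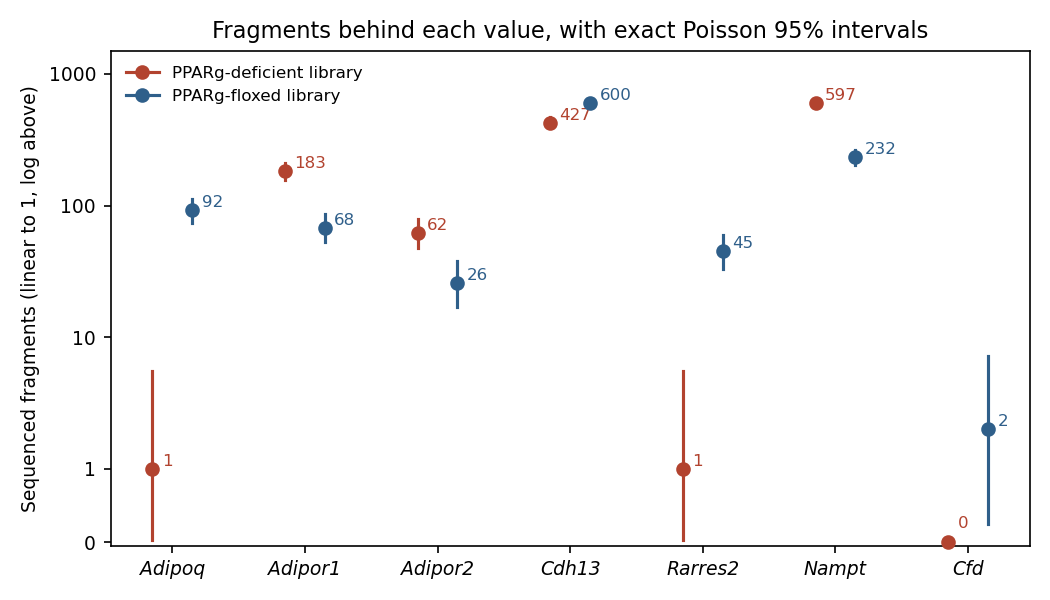
Sequenced fragments behind each gene's value in the PPARg-deficient library (left) and the PPARg-floxed library (right), with exact Poisson 95% intervals, on an axis linear up to 1 and logarithmic above; the numbers are the counts. Adipoq and Rarres2 had 1 fragment each in the deficient library, and Cfd, with 2 in the floxed library, is drawn without an interval where it is listed at 0; Lep and Retn, listed at 0 in both, are left out.

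Adipor1 was spread over 4 transcript models. The 8-exon model of 2024 nt had 3.51 FPKM in the deficient library (deposited bounds 2.40 to 4.62) and 0.874 FPKM in the floxed library (0 to 1.98), and it held 44.0% of the gene's FPKM in the deficient library, against 30.6% in the floxed library. A 2-exon model of 3170 nt that covers the end of the gene, and whose own structure matched no annotated transcript, had 2.68 FPKM (1.95 to 3.42) in the deficient library and 1.48 FPKM (0.95 to 2.0) in the floxed library. Its share was 33.6% in the deficient library, against 51.7% in the floxed library. Of the other 2 models, one of 2991 nt had 0.838 FPKM in the deficient library (0.359 to 1.32), while its upper bound was 0.0792 FPKM in the floxed library. Bounds of the 2024-nt and 2991-nt models did not overlap between libraries, and those of the 3170-nt and 3232-nt models did.

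T-cadherin was the most abundant of the 9 in both libraries. Cdh13 (XLOC_022312), a locus of 1041289 bases on chromosome 8 from 120807497 to 121848785 (mm9, plus strand), had 19.2 FPKM in the deficient library from 427 fragments (387 to 469) and 26.5 FPKM in the floxed library from 600 fragments (553 to 650). The ratio was 0.724 (0.638 to 0.821). The log2 fold was -0.45 as deposited, short of a call, and -1.30 relative to the median gene, where it was called lower and 8.34% of kept loci lay below it. Both of its 14-exon models were lower. The shorter model of 2290 nt had 15.7 FPKM (13.7 to 17.6) in the deficient library and 19.7 FPKM (17.4 to 22.0) in the floxed library, and the model of 3885 nt had 3.55 FPKM (2.77 to 4.33) in the deficient library and 6.80 FPKM (5.72 to 7.88) in the floxed library. The bounds of the shorter model overlapped between libraries and those of the longer one did not.

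Cdh13 is also known from endothelial cells. Of 7 endothelial markers 0 reached 1 FPKM in either library, with a summed level of 0.277 FPKM in the deficient library and 0.0339 FPKM in the floxed library, and Pecam1 and Emcn were listed at 0 in both.

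**Figure D3:**
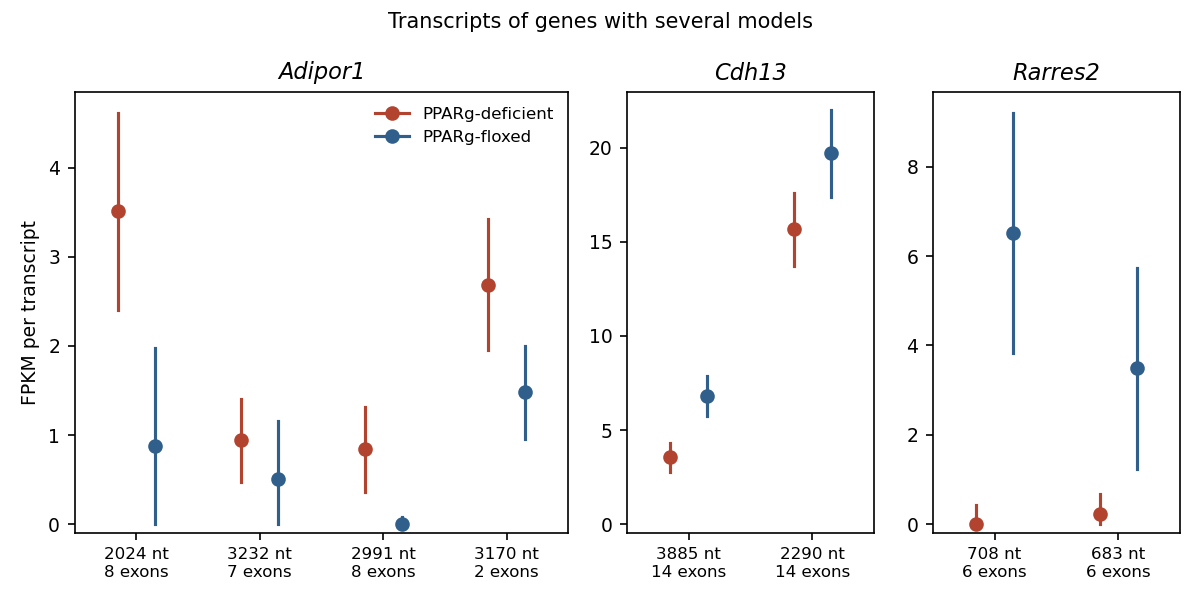
FPKM of each transcript model of Adipor1, Cdh13 and Rarres2 in the PPARg-deficient library (left point) and the PPARg-floxed library (right point) with deposited bounds, labelled by length and number of exons; the scales differ between panels. Both Cdh13 models and both Rarres2 models were lower in the deficient library, and all 4 Adipor1 models were higher as deposited.

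Chemerin, a chemoattractant and adipokine that also promotes fat cell formation, had values close to those of adiponectin. Rarres2 (XLOC_018959), on chromosome 6 from 48519697 to 48522790 (mm9, minus strand), had 0.224 FPKM in the deficient library from 1 fragment (0.0253 to 5.57) and 10.01 FPKM in the floxed library from 45 fragments (32.8 to 60.2). The ratio was 0.0223 (0.000553 to 0.131), and the log2 fold was -4.03 relative to the median gene and -3.17 as deposited, with 0.651% of kept loci lower. Its 2 models of 6 exons, which share their last base and differ at the start, had 6.52 FPKM (3.83 to 9.21) and 3.49 FPKM (1.24 to 5.74) in the floxed library. In the deficient library the first had an upper bound of 0.425 FPKM and the second of 0.671 FPKM. Lrrc61 on the other strand overlapped its end by 1025 bases, and the sources used here do not state whether reads were assigned by strand. Lrrc61 stood at 0.0862 FPKM in the deficient library and was listed at 0 in the floxed library. These values rest on the same assignment of reads, and how reads in the overlap were shared was not tested.

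Among named kept genes, Rarres2 was the third nearest to Adipoq by Euclidean distance over log2(FPKM + 1) in the 2 libraries, at 0.15. The other nearest genes were Gm45799 (0.11), Ifit1bl2 (0.12), Igsf3 (0.18) and Oas1a (0.21). A likeness over 2 libraries is a weak description, since any gene near 10 FPKM in the floxed library and near 0 in the deficient one falls there.

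Nampt makes nicotinamide mononucleotide, the rate-limiting step of NAD salvage, and is also released from cells under the name visfatin. Nampt (XLOC_004624), a model of 11 exons on chromosome 12 from 33505200 to 33538234 (mm9, plus strand), had 14.7 FPKM in the deficient library from 597 fragments (550 to 647) and 5.89 FPKM in the floxed library from 232 fragments (203 to 264). The ratio was 2.49 (2.14 to 2.91). As deposited it was called higher at a log2 fold of 1.19, and relative to the median gene it lay 0.33 higher, without a call, above 67.8% of kept loci.

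The remaining adipokine genes were hardly detected. Cfd, which encodes adipsin, the serine protease complement factor D, was listed at 0 in the deficient library and had 0.307 FPKM in the floxed library (bounds 0 to 0.740), from 2 fragments. Lep, the gene of the satiety hormone leptin, and Retn, the gene of resistin, were listed at 0 FPKM in both libraries. Over all kept loci, 15 were listed at 0 in the deficient library with at least 5 FPKM in the floxed library and 18 the other way round, and whether a listed 0 is an unexpressed gene or a failed estimate was not tested. No fold is given for these 3 genes.

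In the deficient library the order by FPKM was Cdh13, Nampt, Adipor1, Adipor2, Rarres2 and Adipoq, and neighbours had separate bounds except Rarres2 and Adipoq. In the floxed library it was Cdh13, Rarres2, Adipoq, Nampt, Adipor1, Adipor2 and Cfd. There the bounds of Cdh13 were apart from those of Rarres2, and those of Adipoq from those of Nampt, while the other neighbours overlapped. Adipoq and Rarres2 thus stood above Nampt and Adipor1 in the floxed library and below them in the deficient library.

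**Figure D4:**
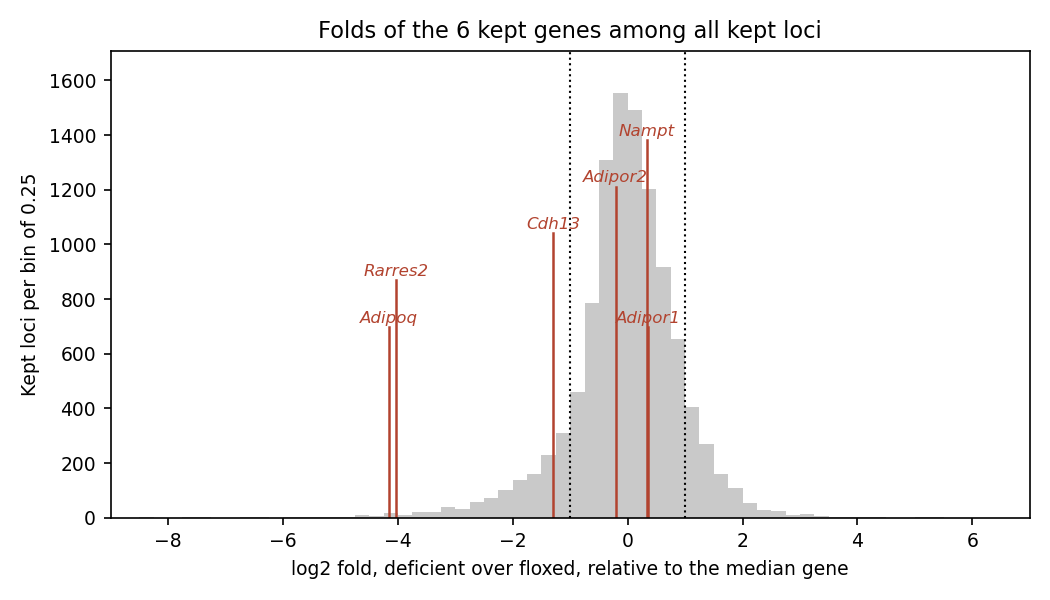
Distribution of log2 folds, deficient over floxed and relative to the median gene, over 10755 kept loci (grey bars, bins of 0.25), with the 6 kept adipokine and receptor genes as red lines whose heights only separate the labels; dotted lines mark 2-fold. Adipoq (-4.16) and Rarres2 (-4.03) lay in the lower tail, Cdh13 (-1.30) just past 2-fold, and Adipor1, Adipor2 and Nampt near the median gene.

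Fat cell markers were lower in sum beside Adipoq. Of 11 such markers 2 reached 1 FPKM in each library, Lpl and Fabp4. Their summed level was 16.7 FPKM in the deficient library and 194 FPKM in the floxed library, of which Lpl, the lipoprotein lipase gene, made 2.78 FPKM in the deficient library and 176 FPKM in the floxed library. Fabp4, a fatty acid carrier gene, was at 12.7 FPKM in the deficient library and 17.6 FPKM in the floxed library. Plin1, Cidea and Pck1 were listed at 0 in both, and Pnpla2 was at 0.791 and 0.136 FPKM in the deficient and floxed libraries. The other 9 markers were under 1 FPKM in each library, also where Adipoq stood at 9.87 FPKM.

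Markers of other cells differed as well. Their sums are of FPKM as deposited. The median gene was 1.81-fold higher in the deficient library on FPKM + 1, which is not the scale of these sums. The 11 stromal markers summed to 567 FPKM in the deficient library and 206 FPKM in the floxed library. Cxcl12 alone made 318 FPKM in the deficient library and 60.4 FPKM in the floxed library. Relative to the median gene, kept stromal markers lay on both sides. Log2 folds were -1.37 for Nt5e, -0.85 for Vcam1, -0.56 for Itgb1 and 0.02 for Cd44. They were 0.86 for Pdgfra, 0.86 for Pdgfrb, 0.93 for Prrx1 and 1.52 for Cxcl12. The 4 matched osteoblast markers summed to 0.164 FPKM in the deficient library and 15.4 FPKM in the floxed library, where Ibsp stood at 7.56 and Alpl at 7.49 FPKM, with Phex at 0.394. Ibsp was listed at 0 and Alpl at 0.139 FPKM in the deficient library, and Dmp1 was listed at 0 in both. The 8 macrophage and monocyte markers summed to 34.4 FPKM in the deficient library and 6.36 FPKM in the floxed library, with Lyz2 at 19.5 and 0.258, Cd14 at 12.5 and 4.52 and Cd68 at 2.10 and 1.56 FPKM in deficient and floxed cells, and Ptprc, Itgam and Adgre1 listed at 0 in both. The 8 granulocyte markers summed to 10.9 FPKM in the deficient library and 27.9 FPKM in the floxed library, with Mcpt8 at 4.04 and 21.5, Camp at 6.78 and 6.41 and Mpo at 0.0912 and 0 FPKM in deficient and floxed cells. S100a8, S100a9, Ngp, Ltf and Elane were listed at 0 in both. Lymphocyte markers summed to 0.267 FPKM in the deficient library and 0.531 FPKM in the floxed library, with Cd3e listed at 0 in both. Relative to the median gene, the log2 fold was 3.17 for Lyz2, 0.43 for Cd14 and -0.58 for Cd68. It was -3.02 for Mcpt8, -0.79 for Camp and -3.76 for Alpl. The part of these marker differences in the values of Adipoq and Rarres2 was not tested.

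Genes that assemble adiponectin or carry its signal were measured beside the ligand and its receptors. Of 26 listed genes 24 were matched and 17 kept, and relative to the median gene 1 was called lower and 0 higher, where 11.8% of all kept loci were lower and 10.3% higher, with a list median of 0.27 against 0 over all kept loci by construction. As deposited 0 were lower and 10 higher, where 4.71% and 42.0% of all kept loci were, with a median of 1.13 against 0.86. Of the 17, 4 passed through 1 library only. Prkab2, a regulatory subunit of AMP-activated protein kinase, was the lower one, at 1.0 FPKM in the deficient library and 1.61 FPKM in the floxed library (-1.24), a call chosen for mention after its value was seen. Rack1, a scaffold protein gene, was at 890 FPKM in deficient and 282 FPKM in floxed cells (0.80). Prkaa1, the catalytic subunit gene of the kinase, was at 21.0 FPKM in deficient and 16.6 FPKM in floxed cells (-0.54). The adaptor gene Appl2 was at 6.47 FPKM in deficient and 2.08 FPKM in floxed cells (0.42). Csnk2b, a casein kinase subunit gene, was at 254 FPKM in deficient and 107 FPKM in floxed cells (0.38), and Strada, a partner of the kinase LKB1, at 10.4 FPKM in deficient and 3.83 FPKM in floxed cells (0.38). Erp44, a chaperone gene that holds adiponectin in the secretory pathway, was at 10.4 FPKM in deficient and 4.20 FPKM in floxed cells (0.28).

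Partners of the other adipokines were mostly low. Of 18 listed genes, receptors and complement factors among them, 15 were matched and 7 kept, with a median of -0.18 (0.68 as deposited). Relative to the median gene 2 were lower and 1 higher, beside 11.8% and 10.3% of all kept loci, and as deposited 1 was lower and 2 higher, beside 4.71% and 42.0%. Of the 7, 1 passed through 1 library only. Cd59a, a membrane complement inhibitor gene with a similar copy, was at 43.8 FPKM in deficient and 22.8 FPKM in floxed cells (0.06), and its value is uncertain. Masp1, a gene of complement proteases, had 69.9 FPKM in deficient and 12.8 FPKM in floxed cells (1.51). Cap1, described as a resistin receptor in human cells, was at 131 FPKM in deficient and 165 FPKM in floxed cells, -1.19 relative to the median gene and -0.34 as deposited. Tlr4 was at 6.24 FPKM in deficient and 3.53 FPKM in floxed cells (-0.18). The leptin receptor gene Lepr, not kept, was at 0.0667 FPKM in deficient and 0.242 FPKM in floxed cells.

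The NAD pathway around Nampt was measured in a list of its genes. All 20 listed genes were matched, 15 were kept, 4 of them through 1 library only, and 0 were called in either direction, where 11.8% of all kept loci were lower and 10.3% higher, with a list median of 0.10 relative to the median gene. As deposited 7 were higher and 0 lower, where 42.0% and 4.71% of all kept loci were, and the list median was 0.96 against 0.86 over all kept loci. The genes furthest above the median gene lay just under 2-fold. They were the NAD-dependent deacetylase gene Sirt2 (19.6 FPKM in deficient and 4.79 FPKM in floxed cells, 0.97), the NAD synthetase gene Nadsyn1 (8.41 FPKM in deficient and 1.73 FPKM in floxed cells, 0.93) and Parp1, whose product consumes NAD at DNA breaks (8.80 FPKM in deficient and 1.91 FPKM in floxed cells, 0.89). Sirt5 followed at 11.1 FPKM in deficient and 3.12 FPKM in floxed cells (0.70). Nnmt, which methylates nicotinamide, was at 31.3 FPKM in deficient and 25.1 FPKM in floxed cells (-0.55), and the NAD kinase gene Nadk at 12.7 FPKM in deficient and 4.30 FPKM in floxed cells (0.52).

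Other secreted factors linked to fat held both lower and higher genes, as all kept loci did. Of 30 listed and matched genes 17 were kept, 5 through 1 library only, with a median of 0.18 (1.04 as deposited). Relative to the median gene 3 were lower and 4 higher, where 11.8% of all kept loci were lower and 10.3% higher, and as deposited 3 were lower and 9 higher, where 4.71% and 42.0% were. Hp, the haptoglobin gene, had 1.12 FPKM in deficient and 212 FPKM in floxed cells (-7.51), and Agt, the gene of the blood pressure precursor angiotensinogen, 0.392 FPKM in deficient and 19.0 FPKM in floxed cells (-4.70). Ccn5, a matricellular protein gene, had 76.2 FPKM in deficient and 4.64 FPKM in floxed cells (2.92). Bmp4 was at 46.9 FPKM in deficient and 9.32 FPKM in floxed cells (1.36), and Fbn1, whose product is cut to fibrillin and the hormone asprosin, at 29.8 FPKM in deficient and 7.17 FPKM in floxed cells (1.06). Angptl4, a secreted inhibitor of lipoprotein lipase and a known PPAR target, was the third lower gene at 0.440 FPKM in deficient and 1.95 FPKM in floxed cells (-1.89), named after its value was seen.

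**Figure D5:**
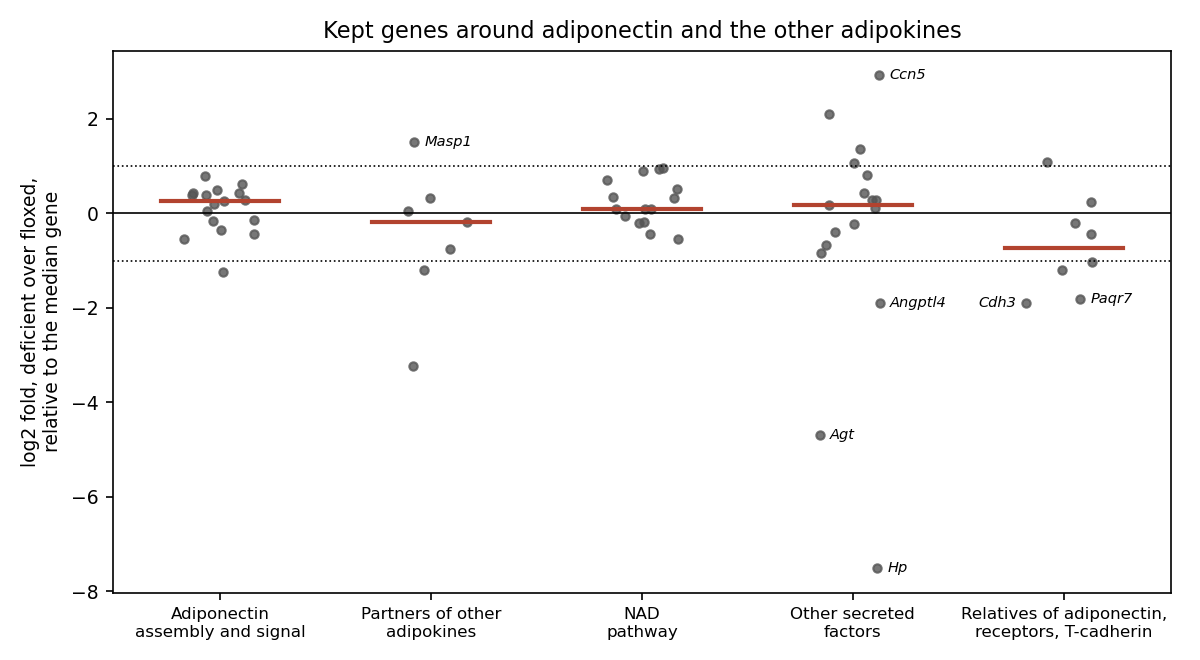
Log2 folds, deficient over floxed and relative to the median gene, of the kept genes of 5 lists (grey points, 1 per gene, spread sideways for sight only), with the list median as a red bar and 2-fold as dotted lines. The lists' medians ran from -0.74 to 0.27, with Hp and Agt the lowest points and Ccn5 the highest.

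Relatives of adiponectin, its receptors and T-cadherin were the list with the lowest median. Of 31 genes 28 were matched and only 8 kept, 3 of them through 1 library, with a median of -0.74 (0.11 as deposited). Relative to the median gene 4 were lower and 1 higher, against shares of 11.8% lower and 10.3% higher over all kept loci. As deposited 1 was lower and 2 higher, against 4.71% and 42.0%. Cdh11, the mesenchymal cadherin gene, was at 12.6 FPKM in deficient and 16.3 FPKM in floxed cells (-1.20), close to the fold of Cdh13. Cdh2, the N-cadherin gene, was at 11.6 FPKM in deficient and 2.27 FPKM in floxed cells (1.09). C1qtnf1, which encodes a C1q/TNF relative of adiponectin, was at 8.32 FPKM in deficient and 6.0 FPKM in floxed cells (-0.44). The other 3 lower genes, named after their values were seen, were the P-cadherin gene Cdh3 (0.282 FPKM in deficient and 1.62 FPKM in floxed cells, -1.89), Paqr7, which encodes a membrane progestin receptor of the AdipoR family (1.74 FPKM in deficient and 4.32 FPKM in floxed cells, -1.82), and C1qtnf6 (2.97 FPKM in deficient and 3.51 FPKM in floxed cells, -1.04).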

How the data were processed

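RNA sequencing of 1 PPARg-deficient and 1 PPARg-floxed library was grouped by the genotype label. The deposited files hold FPKM per transcript with lower and upper bounds and coverage. TopHat2 2.0.5, Cufflinks 2.0.2, Cuffdiff 2.0.2 and mm9 are named, without role or order, per the submitters' processing notes. The sources used here do not state the annotation, filters or strand handling. The deposited score column was not used. Since FPKM is scaled to a library's own total, abundant genes in 1 library lower the values of the rest.

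Loci were named by matching ordered intron and internal exon lengths to GENCODE M21 (same chromosome and strand), which named 18998 of 25707 loci: 17676 by a whole chain of at least 2 introns, 358 by a run of 3 lengths and 964 by a single intron with a terminal exon. In 223 loci that joined several genes, 468 transcripts kept their own match. On a wrong chromosome 0 of 37034 chains and 2 of 2919 single introns matched. No coordinate was converted between builds. Older symbols were matched through the RefSeq table.

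Fragments were computed as (2 × FPKM / (upper bound − FPKM)) squared for genes with 1 transcript. Over all single-transcript loci of at least 300 nt and above 0.01 FPKM, 77.7% in the deficient library, against 79.3% in the floxed library, gave whole numbers within 0.02. For other genes they came from a line of fragments per FPKM on transcript length, rounded to whole numbers. The line's error was under 0.229% in the deficient library, against 0.0930% in the floxed library, for 95% of the fitted loci. These were single-transcript loci over 600 nt with at least 10 fragments and bounds that gave a whole number. That error was not measured for genes with several transcripts. For the 2024-nt Adipor1 model in the floxed library, the line gave 14.4 fragments and the bounds 2.48. Ratios have exact (Clopper-Pearson) binomial intervals. No replicate check exists, and intervals cover counting error only. The fold and call step was tested on simulated data. Planted changes there were larger than the 2-fold cut and only in genes well above the 1 FPKM filter, so values near 0 were not tested. Alternatives were other pseudocounts, filters, scalings, transcript choices and call rules.

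The members and lists were chosen with earlier results of these data known. The text names all 9 members, Pparg, from each of 5 lists up to 6 kept genes that reached 5 FPKM and lay furthest from the median gene, the 3 highest of each marker list and the 5 genes nearest to Adipoq, plus those said to be chosen after their values were seen. Some markers outside that rule, mainly those at 0, were named afterwards. A few genes that the rule takes are counted in their lists but not reported here by name. Python 3.11.15 with numpy 2.4.6, pandas 2.3.3, scipy 1.17.1 and matplotlib 3.10.9 was used.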

Additional observations from a re-analysis of the deposited data

How the results depend on the processing

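No paired analysis was possible because each group has 1 library, and for the same reason no replicate could be left out. Adipoq and Rarres2 were lower in all 10 alternatives run for each, with log2 folds from -6.75 to -1.98 for Adipoq and from -6.10 to -1.96 for Rarres2, the lowest with a pseudocount of 0.1 FPKM and the highest with 5 FPKM. Cdh13 was lower in 10 of 10 (-1.60 to -0.45), and Adipor1 (0.15 to 1.22) and Nampt (0.11 to 1.19) higher in 10 of 10. Adipor2 kept its sign in 5 of 9 (-0.22 to 0.70). The median over the 6 kept members, -0.76, was 0.10 as deposited and 0.07 with TPM. Filters changed the members themselves. With no filter on low values the median was -0.05 over all 9, which adds Cfd and also Lep and Retn, listed at 0 in both libraries. With a filter of 5 FPKM it was -1.52 over 5 members.

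The number called in either direction changed by more than 1.5 times as follows. For adiponectin assembly and signal genes it was 1, and 9 with no filter, 0 with a filter of 5 FPKM, 10 as deposited, 10 with TPM, 3 at 1.5-fold, 0 at 4-fold and 0 with separate bounds. For NAD genes it was 0, and 2 with a pseudocount of 0.1 FPKM, 7 with no filter, 7 as deposited, 8 with TPM, 3 with the most abundant transcript and 4 at 1.5-fold. For secreted factors it was 7, and 11 with no filter, 12 as deposited, 13 with TPM and 4 at 4-fold. For relatives it was 5, and 0 with a pseudocount of 5 FPKM, 1 with a filter of 5 FPKM, 3 as deposited, 3 with the most abundant transcript, 0 at 4-fold and 2 with separate bounds. For partners of other adipokines it was 3, and 1 at 4-fold. These totals do not show direction. For adiponectin assembly and signal genes the 1 call was of a lower gene, while with a pseudocount of 5 FPKM the 1 call was of a higher gene. The cause of these changes was not tested. The values of Adipoq and Rarres2 in the deficient library rest on 1 fragment each, which limits their precision.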

Other observations

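The genes beside Adipoq on the chromosome were not as low in the deficient library as Adipoq. Rfc4, the nearest named gene below Adipoq at a gap of 18798 bases, was at 69.8 FPKM in deficient and 22.8 FPKM in floxed cells. Its fold was 0.72 relative to the median gene. St6gal1, the nearest above Adipoq at 66771 bases, was at 0.656 and 0.804 FPKM in deficient and floxed cells. It was not kept, and its fold was -0.98 relative to the median gene and -0.12 as deposited. The gene above Rarres2, Gm5111 at 16653 bases, was listed at 0 in both libraries. Both neighbours of Cdh13 had folds near its own -1.30 relative to the median gene (-0.45 as deposited). Of all kept loci 11.8% were called lower relative to the median gene. Mphosph6, at a gap of 481635 bases, was at 25.2 FPKM in deficient and 32.2 FPKM in floxed cells (-1.20, and -0.34 as deposited). Hsbp1, at a gap of 19551 bases, was at 239 FPKM in deficient and 311 FPKM in floxed cells (-1.24, and -0.38 as deposited). These neighbours, and those of the other members, which are not reported here, were looked up after the values of the adipokine genes were known.

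Of 1923 named kept genes with 5 to 20 FPKM in the floxed library, a range set after seeing Adipoq and Rarres2, 37 (1.92%) were under 0.5 FPKM in the deficient library, and the median there was 19.5 FPKM.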
